A study of Drosophila melanogaster with 31 samples.

Results

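The genes described are the nuclear-encoded subunits of oxidative phosphorylation in Drosophila melanogaster, chosen by symbol: names that begin with ND- (complex I), UQCR- (complex III), COX4 to COX8 (complex IV) or ATPsyn (complex V). The rule found 80 of the 13821 genes with transcripts in the files, 40 in complex I, 9 in complex III, 16 in complex IV and 15 in complex V. Of these, 58 had a mean deposited TPM of at least 100 over all libraries and are called core members here. A further 21 carry an L in the name, which marks a second gene resembling another subunit. The 17 of these with a parent gene among the members lie far below it. ND-B8 is the 1 other member below 100 TPM. The members lie on every major arm, with 19 genes on 3L, 16 each on 2L and 3R, 15 on 2R, 12 on X and 2 on chromosome 4.

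Oxidative phosphorylation makes ATP in the inner mitochondrial membrane. Complex I takes electrons from NADH, complex III passes them from ubiquinol to cytochrome c, complex IV passes them to oxygen, and the proton gradient these steps build drives ATP synthase, complex V. Each of these complexes joins subunits made from nuclear genes with a few made from mitochondrial DNA, and neurons, like flight muscle, rely heavily on them.

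The study asked how sensory input changes transcripts in male flies, and how age bears on it. RNA was sequenced from antennae (the 2nd and 3rd segments together) and from brains, 31 libraries in all. Antennae came from flies 4 to 5 days old of 2 strains, OreR wild type and the mutant w*; TI{TI}Orco2 (Orco2), which lacks the odorant co-receptor Orco, with 2 libraries for each strain kept sensory deprived (0 min) and 2 for each after odor and light (stimulated). The label of the stimulated antennae lists 10, 20 and 30 min, so the duration in each library is not known. Brains were OreR only. There were 3 libraries each at 0, 10, 20, 30 and 45 min of odor and light at 4 to 5 days (called 5 days here), and 2 each at 0 and 30 min at 10 and at 25 days. Each genotype is 1 strain, the number of flies pooled in a library is not given, and HDAC6 mutant brains were not analysed here. The series' text calls the replicates biological. The letters A, B and C name replicates, and p-values measure the spread between them.

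Library totals ran from 18.5 to 54.9 M estimated counts (M, 1000000) in antennae and from 19.3 to 76.7 M in brains. Orco stood at 1760, 1745, 1776 and 1752 CPM (counts per M counts) in the OreR antennae and at 7.09, 6.68, 6.83 and 7.47 in the Orco2 antennae, as the labels have it. Summed antennal markers lay at 29617 to 36856 CPM in antennae and at 5.14 to 54.3 in brains, and summed neuronal markers at 4212 to 8175 and at 15075 to 28275. The mean fragment length read from the effective lengths fell into classes. It was 302 bases in OreR antennae A and 355 in B, and 299 in Orco2 antennae B and 355 in C. In brains it was 370 in A and B and 336 in C at 5 days and 0, 10 and 20 min, 336 in all 5-day libraries at 30 and 45 min, and 326 in A and 336 in B at 10 and 25 days. The effective length of ND-MLRQ, taken as an example, was identical in every library of a class, such as 24.3192 bases in each library at 370. Whether fragment length was measured in each library or set at quantification is not given, so below it names a class. The brain libraries were sequenced on both HiSeq2000 and NextSeq500 instruments, and which library came from which is not given. The 58 core members together took 1.16 to 1.43% of the counts in antennae (median 1.26%) and 0.438 to 1.03% in brains (median 0.870%).

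Levels between genes are given as CPM per kilobase of transcript, mean ± SD over libraries. ATP synthase held the most abundant members. ATPsynC, which forms the proton-carrying rotor ring, stood at 908 ± 47.3 in antennae (n = 8) and 814 ± 182 in brains (n = 23). ATPsynbeta, the catalytic subunit, stood at 833 ± 33.0 and 942 ± 170. The brain levels of these 2 genes lay within each other's spread. COX4, a nuclear subunit of cytochrome oxidase, followed at 521 ± 21.0 in antennae and 278 ± 117 in brains, apart from both ATP synthase genes in each tissue.

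By complex, the median core member stood at 122 CPM per kilobase in antennae and 88.6 in brains for complex I, at 212 and 122 for complex III, at 274 and 154 for complex IV, and at 262 and 163 for complex V. The order of complexes I, III and the other 2 was the same in both tissues, and complexes IV and V lay close together. In complex I the member with the highest mean was ND-MLRQ in antennae (259 CPM per kilobase), whose mammalian counterpart is now assigned to complex IV. In brains it was ND-49 (233), a core subunit near the quinone site. UQCR-C1, a core protein of complex III, had the highest mean of its complex in both tissues, with 245 and 200 CPM per kilobase. Whether these means lie apart from those of the next members was not tested. ND-B15, an accessory subunit of the membrane arm, was the lowest core member in both, at 52.3 and 27.8. From the lowest to the highest core member the span was 17.4-fold in antennae and 33.9-fold in brains.

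The deposited TPM gives another order for short transcripts, because it divides by an effective length that shrinks as the fragment length grows. The transcript of ND-MLRQ used as an example is 379 bases long. Its effective length was 78.1 bases in OreR antenna A at 0 min, a library of the 302-base class. In a library of the 370-base class the effective length of the same transcript was 24.3. CPM was therefore used between libraries. The members with the highest mean TPM were ND-MLRQ, ND-AGGG and ND-B12 in complex I, UQCR-11, UQCR-Q and UQCR-14 in complex III, COX7B, COX4 and COX6B in complex IV, and ATPsynC, ATPsynbeta and ATPsynG in complex V.

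Within antennae the core members moved little from library to library, and within brains they moved far more. The highest over the lowest library had a median of 1.26-fold over the 58 core genes in antennae and of 4.52-fold in brains. Much of the brain range came from 5 libraries: 0 min B and C and 20 min C at 5 days, and both B libraries at 25 days. These were set apart by another gene family, the cytosolic ribosomal proteins, whose mean log2 difference from the brain mean was -1.41 to -0.611 there and -0.151 to 0.692 in the other 18. The core members went the same way, from -1.65 to -0.433 in the 5 and from 0.0127 to 0.474 in the 18. Mitochondrially encoded subunits of the same complexes did not, at 0.00904 to 0.885 in the 5 and -0.861 to 0.496 in the 18. Without the 5 libraries the median range of a core member over brains fell to 1.57-fold. Over all 23 libraries 15 of the 58 spanned more than 10-fold, and over the 18 none did. These 5 libraries are called the low libraries, and the brain comparisons below are given with and without them. Without them 1 library is left at 0 min at 5 days and 1 at each time at 25 days, and a lone library is assumed to vary like the other groups.

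**Figure D1:**
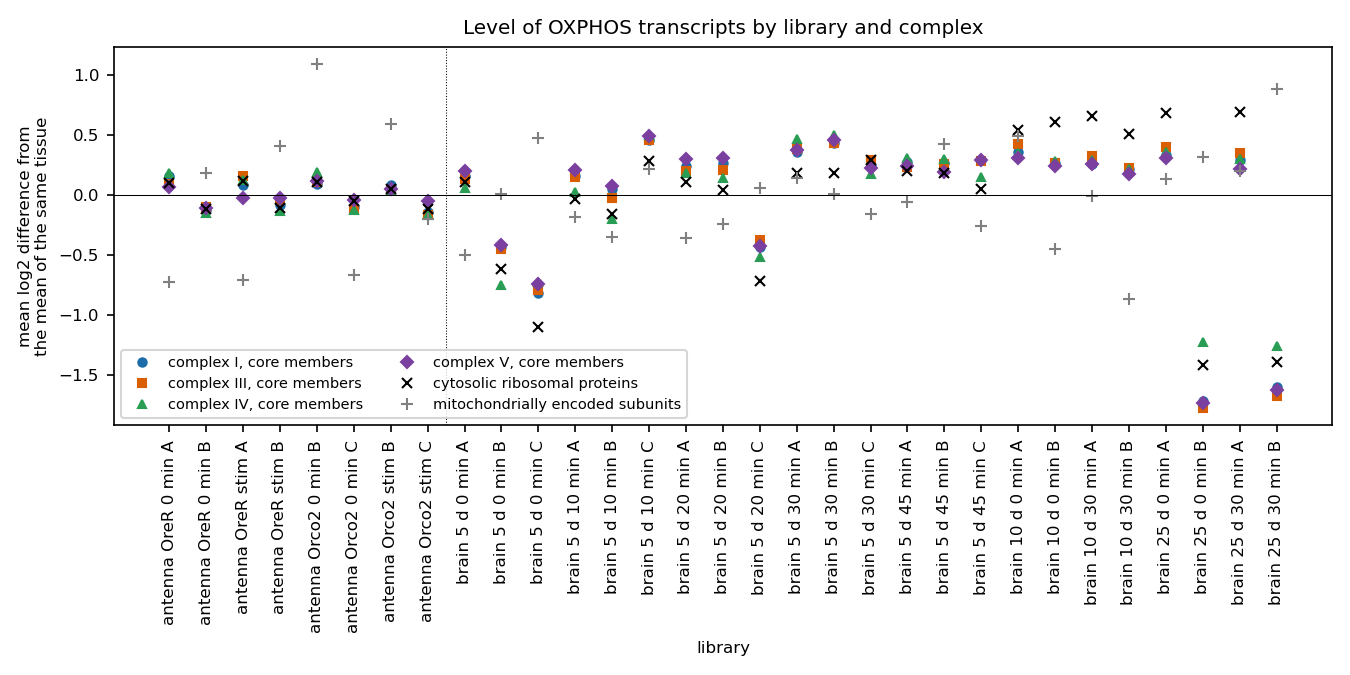
Mean log2 difference from the tissue mean in each of the 31 libraries (vertical axis), for core members of complexes I, III, IV and V, for cytosolic ribosomal proteins and for mitochondrially encoded subunits. The 5 low brain libraries lie below the rest for the 4 complexes (core mean -1.65 to -0.433 against 0.0127 to 0.474) and for the ribosomal proteins, and the mitochondrially encoded subunits do not follow them.

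In antennae the small spread followed fragment length, and so did some cell markers. The mean core difference was 0.0717 to 0.140 in the 4 libraries at 299 or 302 bases and -0.126 to -0.0724 in the 4 at 355, without overlap. All genes with transcripts under 600 bases moved more, from 0.142 to 0.336 and from -0.297 to -0.172. COX7B, a small subunit of complex IV, stood at 88.2 to 102 CPM in the first 4 libraries and at 53.3 to 56.3 in the others. Neuronal markers differed from the antennal mean by -0.434 to -0.0964 log2 in the first 4 libraries and by 0.0232 to 0.565 in the others. Photoreceptor markers summed to 4897.5 to 10572 CPM and to 1106.5 to 4647 CPM. Markers of glia and of muscle overlapped between the classes. The part of fragment length or cell content in the core spread was not tested. Each genotype and treatment has 1 library of each class, so the classes are balanced over those comparisons.

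At 25 days, replicate B fell below replicate A for 52 of the 58 core members at 0 min and for 52 at 30 min. Of 9087 expressed genes 4957 and 5050 were lower in B. These are ratios of single libraries with no test. The median log2 ratio of B over A was -1.81 at 0 min and -1.72 at 30 min, and 44 and 43 of the 58 core members (75.9% and 74.1%) were below -1. Of 9087 expressed genes 22.4% and 22.0% were that low, with medians of -0.12 and -0.14. At 10 days no core member was below -1 at either time, against 0.418% and 5.80% of all genes, and the median ratios were -0.07 and -0.05.

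The fall in the 25-day B libraries was uneven inside each complex. ND-75, the large iron-sulfur subunit of the complex I arm that takes electrons from NADH (X:8248651-8251687, minus strand, BDGP6.54 annotation, protein-coding), stood at 365 CPM in A and 5.37 in B at 0 min, and at 328 and 8.21 at 30 min. UQCR-C2, a core protein of complex III (3L:16584124-16586111, plus strand), went from 261 to 4.83 and from 244 to 5.26. ATPsynD, in the peripheral stalk that holds ATP synthase still, went from 169 to 6.46 and from 139 to 9.74. All 3 lay in each B library far under the range of the 4 libraries at 10 days, where ND-75 held 318 to 372 CPM.

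Others went the opposite way in the same libraries. ND-MLRQ stood at 95.6 CPM in A and 229 in B at 0 min and at 109 and 213 at 30 min. UQCR-11 went from 56.1 to 132 and from 59.1 to 118, and ND-AGGG, an accessory complex I subunit, from 112 to 247 and from 99.3 to 208. ND-49 (4:568296-571554, minus strand) and ATPsynbeta (4:1031484-1034917, plus strand), the 2 members on chromosome 4, were also higher in B, at 458 against 303 CPM and 1894 against 1381 at 0 min. Transcript length followed these ratios weakly, with a Spearman's rho of -0.23 and -0.19 over the 58 genes, which share the same libraries. Its sign was not general. Over the 9087 expressed genes rho was 0.26 at both times. It was -0.83 at both times over the 6 core members of complex III, and 0.33 and 0.38 over the 11 of complex V.

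Every complex took part, with medians at 25 days and 0 min of -1.78 for complex I (27 of 33 core members below -1), -2.18 for complex III (3 of 6), -1.46 for complex IV (5 of 8) and -2.16 for complex V (9 of 11). Oxidative phosphorylation genes whose symbols fall outside the rule, with complex II and cytochrome c among them, gave 8 of 11 and a median of -1.62. Cytosolic ribosomal proteins gave 66 of 82, mitochondrial ribosomal proteins 48 of 71, glycolysis 6 of 11, the citric acid cycle 4 of 14 and mitochondrially encoded subunits 2 of 11. Markers of neurons gave 0 of 9 and a median of 0.94. The part of library preparation or RNA quality in these ratios was not tested.

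In the 5-day low libraries fewer core members were that low, and ND-75 and UQCR-C2 were again among them. ND-75 stood at 439, 173 and 35.0 CPM in A, B and C at 0 min, and at 450, 426 and 77.9 at 20 min. UQCR-C2 stood at 245, 51.6 and 13.2 at 0 min, and its C library at 20 min held 24.6. At 0 min the core median was -0.54 for B over A and -0.91 for C over A, with 16 and 28 of 58 below -1 (27.6% and 48.3%, against 4.60% and 12.3% of all genes). At 20 min C over A gave 21 of 58 (36.2% against 7.71%). All of the 16, 28 and 21 were also below -1 in B over A at 25 days and 0 min, where they made 36.4%, 63.6% and 47.7% of the 44. Others of the 44 were not below -1 at 5 days. ND-B17.2, an accessory complex I subunit, stood at 71.3 CPM in A and 25.1 in B at 25 days and 0 min, and at 65.4, 72.4 and 66.8 at 5 days. In C over A at 10, 30 and 45 min no core member was below -1, and the medians were 0.22, -0.11 and 0.05.

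**Figure D2:**
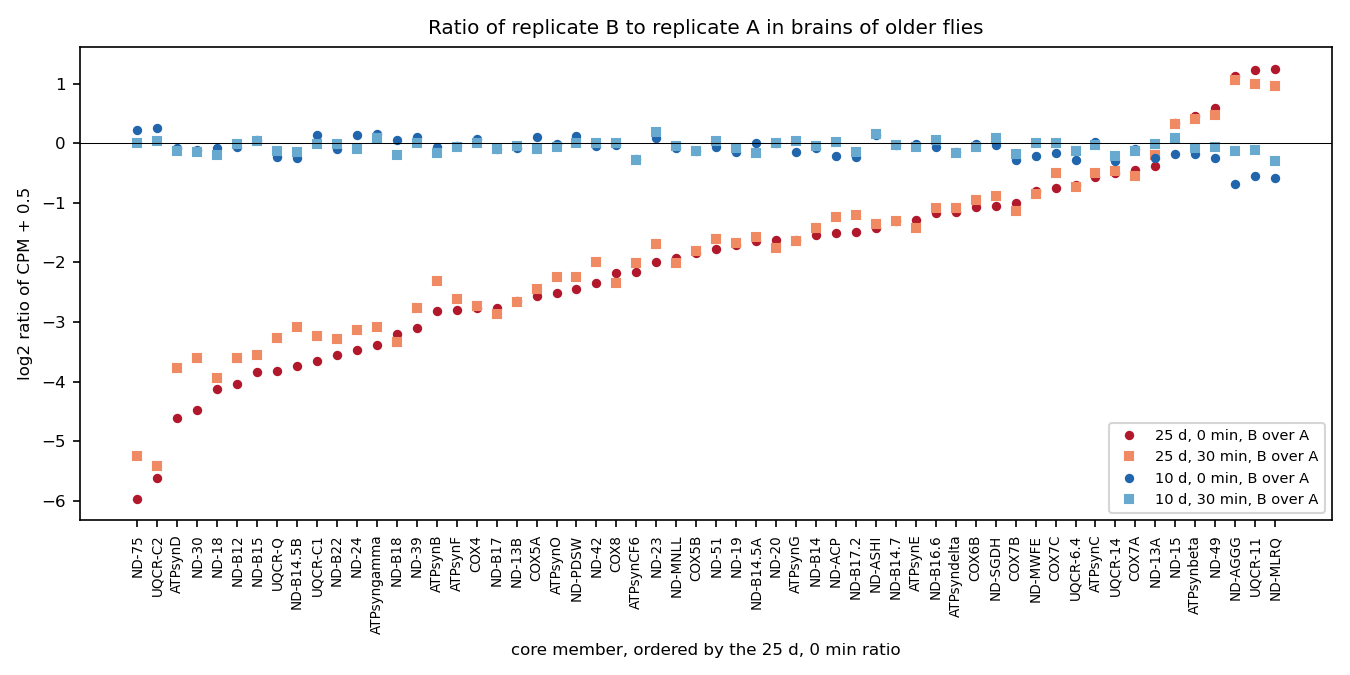
Log2 ratio of CPM + 0.5 in replicate B over replicate A (vertical axis), in brains at 25 and 10 days and at 0 and 30 min. The 58 core members lie along the horizontal axis, ordered by their ratio at 25 days and 0 min. At 25 days the points run from -5.96 to 1.25 at 0 min with ND-75 and UQCR-C2 lowest and ND-MLRQ highest; at 10 days none lies below -1.

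Antennae were next compared between genotypes, to see whether loss of Orco, and with it most odor-driven input, goes with other levels of these genes. With edgeR's quasi-likelihood test and Benjamini-Hochberg adjustment over 11298 genes, 0 of the 71 members tested passed an adjusted p of 0.05 at 0 min, where 5.36% of all genes did. After stimulation 0 of 71 passed, against 7.15% of all genes. The unadjusted p was under 0.05 for 1 and 3 of the 71 members, against 16.3% and 21.8% of all genes. DESeq2 called 0 and 3, with 13.7% of all genes after stimulation, and limma on TPM called 0 in both. A term for the replicate letter gave 22 and 10 calls, 21 and 9 of them higher in Orco2, with 20.2% and 17.9% of all genes. The genotypes share only the letter B. The median log2 difference, Orco2 over OreR, was 0.07 at 0 min (52 of 71 positive; 0.03 over all genes) and -0.08 after stimulation (48 negative; -0.02 over all genes).

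The members with the smallest p illustrate the size of these differences. UQCR-11 (3L:25120709-25126171, plus strand) stood after stimulation at 87.4 and 67.5 CPM in OreR and at 53.9 and 54.5 in Orco2, groups that do not overlap. Its log2 difference was -0.53 (SE 0.15), with an adjusted p of 0.0979 by edgeR's quasi-likelihood test. ND-75 stood at 345 and 349 CPM in OreR and 432 and 420 in Orco2 (log2 0.28), and ND-B16.6, an accessory complex I subunit, at 155 and 154 against 126 and 131 (log2 -0.28). ND-B16.6 was also lower at 0 min, at 153 and 151 against 132 and 133 CPM. ATPsynE, a membrane subunit of ATP synthase, had the smallest p at 0 min, with 121 and 113 against 150 and 130 CPM, a log2 difference of 0.30 (SE 0.11) and an adjusted p of 0.215.

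Odor and light gave no call in antennae. By the same edgeR test 0 of 71 members passed in OreR, in Orco2 and for the difference between the strains' responses, and 0% of all 11298 genes passed in each. No member had an unadjusted p under 0.05, where 1.65%, 2.13% and 2.80% of all genes did. DESeq2 and limma on TPM called none. The median log2 change was 0.02 in OreR and -0.09 in Orco2, where 62 of 71 members were negative, and the difference of the responses had a median of -0.13. Over all genes these medians were 0.01, 0.01 and 0. With 1 library at a time left out, the median in Orco2 ran from -0.24 to 0.02 and that in OreR from -0.07 to 0.14. UQCR-11 was at 67.8 and 66.0 CPM before and 87.4 and 67.5 after stimulation in OreR, where 1 of the 2 stimulated libraries was high and the other within the range of the first group. UQCR-Q, a small subunit of complex III, went in Orco2 from 152 and 165 CPM to 141 and 149, with a log2 change of -0.18.

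The brain time series asked the same of 5-day brains after 10, 20, 30 and 45 min. All 4 comparisons share the 0 min libraries, of which B and C are low. By edgeR's test 0 of the 61 members tested passed at any time, and 0% of all 10431 genes did. The unadjusted p was under 0.05 for 0, 0, 4 and 2 of the 61 members, against 1.96%, 0.892%, 2.20% and 1.74% of all genes. DESeq2 and limma on TPM called 0. Median log2 changes were 0.50, 0.34, 0.59 and 0.53, with 50, 53, 54 and 54 of 61 positive, while the medians over all genes lay between -0.01 and 0. Without the low libraries, which leaves 1 library at 0 min, they were 0.10, 0.10, 0.14 and 0.09, with 42, 52, 50 and 39 positive, and again no member passed.

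COX7B (3L:17425477-17426282, plus strand) had the smallest p of any member in this series. It stood at 27.9, 23.1 and 30.6 CPM at 0 min, at 32.0, 30.8 and 59.5 at 10 min, and at 30.5, 31.6 and 34.5 at 20 min. At 30 min it stood at 55.6, 54.2 and 51.6 and at 45 min at 49.2, 48.7 and 54.4, above every library at 0 min. The log2 change at 30 min was 0.96 (SE 0.29), with an unadjusted p of 0.00444 and an adjusted p of 0.879 by edgeR's quasi-likelihood test; without the low libraries it was 0.95 (SE 0.30). Its level also moved with fragment length. The 6 libraries of the 370-base class held 23.1 to 32.0 CPM. The 7 libraries of 336 bases outside the low ones at this age, all at 30 and 45 min and C at 10 min, held 48.7 to 59.5. Since all libraries at 30 and 45 min are of 336 bases, time and fragment length cannot be told apart for A and B, and only C keeps 336 bases at every time.

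ND-B14, an accessory complex I subunit, had the next smallest p at 30 min. It stood at 30.1, 22.9 and 19.4 CPM at 0 min and at 43.7, 44.4 and 39.8 at 30 min, without overlap, for a log2 change of 0.81, and of 0.50 without the low libraries. The 10 min C library, of 336 bases, held 41.9 CPM and the A and B libraries of that time 31.4 and 27.6. COX7A changed by 0.57 at 30 min and by 0.20 without the low libraries.

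In older brains 30 min of odor and light again moved no member past the threshold. At 10 days 0 of 61 members and 0% of all genes passed by edgeR's test, and at 25 days likewise 0 of 61 and 0%. No member had an unadjusted p under 0.05, where 3.21% and 0.719% of all genes did. DESeq2 and limma on TPM called 0. The median log2 change was -0.07 at 10 days (53 of 61 negative; -0.02 over all genes) and -0.03 at 25 days, and -0.06 and -0.05 without the low libraries. At 25 days it ranged from -1.01 to 1.01 when 1 library at a time was dropped, which leaves the low B libraries unequally shared between the times. Within letters the mean core difference from the brain mean was 0.342 at 0 min and 0.288 at 30 min in A. In B it was -1.65 and -1.56. ATPsynbeta was at 1612 and 1429 CPM at 0 min and 1419.9 and 1345 at 30 min at 10 days. The groups do not overlap, but their nearest libraries are closer to each other than the 2 libraries of either group.

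The response itself was compared between ages. For 10 against 5 days 0 of 61 members and 0% of all genes passed, and for 25 against 5 days 0 of 61 and 0%, by edgeR's test on the interaction. The unadjusted p was under 0.05 for 1 and 0 members, against 3.09% and 0.757% of all genes. DESeq2 and limma on TPM called 0. Both comparisons share the 5-day libraries and both had a median of -0.67. Without the low libraries the medians were -0.21 and -0.21. With 1 library at a time left out, the median for 25 against 5 days ran from -1.66 to 0.60.

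Across age, ATPsynC was the only member that passed (3R:31216145-31219630, minus strand, protein-coding). At 30 min it stood at 1501, 1506 and 1306 CPM at 5 days, at 1027 and 1005 at 10 days and at 890 and 628 at 25 days, and no group overlapped another. At 25 over 5 days the log2 difference was -0.91 (SE 0.19), with an adjusted p of 0.0432 by edgeR's quasi-likelihood test and Benjamini-Hochberg adjustment. This made 1 of 61 members, lower, where 0.489% of all genes passed and 0.278% were lower. At 10 over 5 days, which shares the 5-day libraries, the log2 difference was -0.49 (SE 0.18) with an adjusted p of 0.357, and 0 of 61 members passed against 0.671% of all genes. There 1 member had an unadjusted p under 0.05, and DESeq2 and limma on TPM called 0.

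At 0 min ATPsynC stood at 1357, 1220.3 and 949 CPM at 5 days, at 1058 and 1077 at 10 days and at 982 and 667 at 25 days. The 5-day range takes in both 10-day libraries and 1 of the 25-day ones, and 949 was in the low library C. The log2 difference was -0.14 at 10 days and -0.52 (SE 0.18, adjusted p 0.173 by edgeR's test) at 25 days. No member passed at either age, where 0.115% of all genes did at 10 days and 1.65% at 25 days. The unadjusted p was under 0.05 for 4 of 61 members at 10 days and for 1 at 25 days, against 16.8% and 15.8% of all genes. DESeq2 called 0 and 1, with 5.22% of all genes at 25 days, and limma on TPM called 0 in both. Without 25 days A, which leaves the low library B, 12 of 65 members passed at 25 days, with 10.7% of all genes. Without the low libraries the log2 difference of ATPsynC was -0.35 (SE 0.13, adjusted p 0.218 by edgeR's test) at 10 days and -0.47 (SE 0.15, adjusted p 0.224) at 25 days.

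Without the low libraries ATPsynC kept this direction at each age and time. At 30 min the log2 difference was then -0.70 (SE 0.12, adjusted p 0.0266 by edgeR's test) at 25 days, where 3.04% of all genes passed. That age is then a single library, A, so the SE takes its spread from the other groups and the value has no replicate of its own. At 10 days it was -0.50 (SE 0.10, adjusted p 0.0468), where 1.07% of all genes passed. ATPsynC was the 1 member called in each. The 12 libraries at 5 days outside the low ones, over all times, held 1293 to 1506 CPM, and the 4 at 10 days 1005 to 1077. Of the 25-day A libraries, both outside the low ones, 1 held 982 and the other 890. At 336 bases alone, the 10-day B libraries held 1077 and 1005 CPM, below the 7 libraries at 5 days of that length outside the low ones, at 1293 to 1506. Antennae at 4 to 5 days held 1264 to 1427. Marker sums also differed with age at 30 min. Neuronal markers summed to 18175 to 25146 CPM at 5 days, 16290 to 16924 at 10 days, and 15075 in A and 27334 in B at 25 days. Glial markers summed to 5905 to 7251 CPM, then 3915 to 4673, then 3988 in A and 5399.8 in B. Their part in the ATPsynC difference was not tested. The call at 30 min and 25 days was not made when any of 5 days A, 5 days B or 25 days B was left out, and over 13 alternatives, of which 7 made it, the log2 difference ran from -1.15 to -0.70 with adjusted p from 8.5e-05 to 0.549. Without 25 days A, which leaves the low library B, 19 of 65 members passed there, with 8.55% of all genes.

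The median over the members moved with the low libraries in the comparisons that hold them. At 30 min the median log2 difference of 25 over 5 days was -0.68 (53 of 61 negative; 0.03 over all genes), and -0.09 without the low libraries (40 negative). At 10 over 5 days neither group holds a low library. There the members' median was -0.13 and -0.14, with 47 and 48 of 61 negative (0.04 and 0.03 over all genes). At 0 min, where B and C at 5 days and B at 25 days are low, it was 0.51 at 10 days and -0.06 at 25 days, and 0.06 and 0.13 without them. COX6B at 30 min and 25 days had a log2 difference of -0.81, which did not pass, and of -0.43 without the low libraries. Without them ND-B17.2 and ND-42 had the smallest p after ATPsynC at 10 days and 30 min. Their log2 differences were -0.36 and -0.34, and neither passed. At 25 days and 30 min these were -0.24 and -0.38, from 1 library of that age.

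ATPsynF, a membrane subunit of ATP synthase (2R:24599088-24599821, minus strand), had the widest range in brains outside the low libraries, 5.17-fold. At 0 min it stood at 29.7, 15.9 and 32.9 CPM at 5 days, at 92.5 and 89.1 at 10 days, and at 101 and 14.2 at 25 days. At 30 min the values were 34.4, 39.3 and 65.2, then 91.4 and 87.7, then 91.3 and 14.46. All 4 libraries at 10 days and both A libraries at 25 days lay above every 30 min library at 5 days. The highest 5-day library was C at 10 min, with 103 CPM, against 21.8 and 19.8 in A and B of that time. The log2 difference of 10 over 5 days was 1.79 (SE 0.79) at 0 min and 0.95 (SE 0.79) at 30 min, and neither passed. Without the low libraries it was 1.61 (SE 0.92) and 0.95 (SE 0.62). A and B at 5 days lay below C at each of the 5 times, also at 30 and 45 min where all 3 are in the 336-base class.

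**Figure D3:**
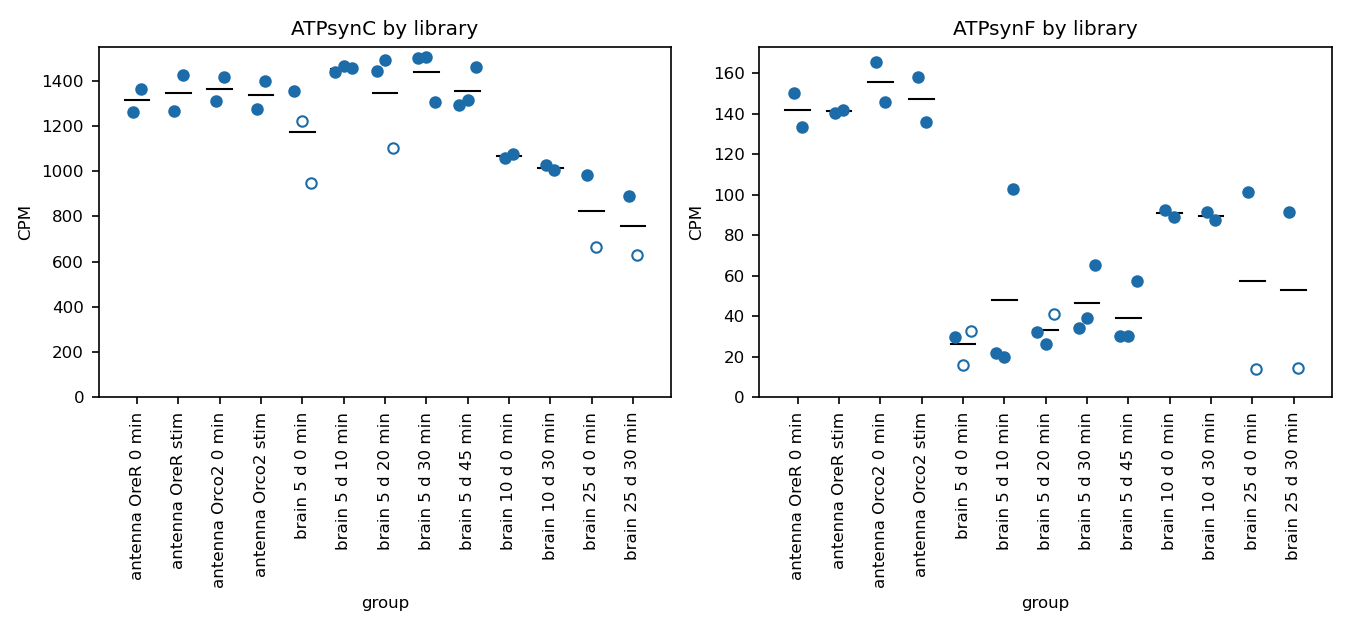
CPM of ATPsynC and ATPsynF (vertical axes) in each library by tissue, age and time, with a line at the group mean and open circles for the 5 low libraries. ATPsynC runs from 1293 to 1506 in the 5-day brain libraries outside the low ones and from 1005 to 1077 at 10 days; ATPsynF runs from 133 to 165 in antennae and from 14.2 to 103 in brains.

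OreR antennae were compared with 5-day OreR brains, both at 0 min. Of 61 members tested, 26 were higher and 1 lower in antennae by edgeR's quasi-likelihood test with Benjamini-Hochberg adjustment, or 44.3%. Over all 10225 genes 57.9% passed, 29.6% higher and 28.3% lower. The share of members called lies below that of all genes. On TPM, limma called 8 members, 4 higher and 4 lower, where 67.9% of all genes passed, so the direction of the calls rests on the unit. The median log2 difference of the members was 1.01, with 58 of 61 positive, against 0.04 over all genes, and 0.38 on TPM. In such bulk samples fewer cells of a type and less RNA per cell cannot be told apart, and tissue cannot be told apart from fragment length and library set, since no fragment length occurs in both.

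By complex, 14 of 33 members tested passed in complex I (median log2 0.87) and 0 of 6 in complex III (0.64). In complex IV 8 of 11 passed (1.26), with the low-level genes COX6AL2 and COX7AL2 among them, and in complex V 5 of 11 (1.02). Over all genes 57.9% passed. ATPsynF had the smallest p. It stood at 150 and 133 CPM in antennae and at 29.7, 15.9 and 32.9 in brains, a log2 difference of 2.40 (SE 0.34, adjusted p 0.00184). In the same complex ATPsynG, a subunit beside the rotor ring, stood at 189 and 168 CPM against 99.2, 66.9 and 56.5 (log2 1.24), and ATPsynB, of the peripheral stalk, at 294 and 288 against 175, 116 and 99.6 (log2 1.14). The groups did not overlap for any of these 3. ATPsynC differed by 0.14 (SE 0.24) and did not pass.

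In complex IV, COX7B was higher by 1.49, COX7A by 1.17, COX5B by 1.01, COX8 by 2.34, COX5A by 1.26 and COX7C by 0.82 on the log2 scale, with COX5B at 131 and 129 CPM in antennae against 83.1, 57.7 and 49.6. In complex I the smallest p belonged to ND-SGDH, an accessory subunit, at 191 and 149 against 93.2, 83.0 and 89.6 CPM (log2 0.91, SE 0.18, adjusted p 0.00633), followed by ND-B16.6 (log2 0.87). ND-B12 and ND-B15 had larger differences, 2.19 and 2.08, with adjusted p of 0.0464 and 0.0493. ND-49 was the member called lower, at 267 and 236 CPM in antennae against 327, 415 and 511 in brains (log2 -0.77, SE 0.27, adjusted p 0.0499), with its highest values in the low brain libraries B and C.

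Without brain B and C, 1 brain library remains and is assumed to vary like the antennal ones. Then 19 of 66 members passed, all higher, where 47.6% of all genes did, and the median was 0.62 against 0.11 over all genes. Of the calls 14 were shared, 51.9% of the 27 and 73.7% of the 19. ATPsynF stayed at 2.23 (adjusted p 0.00254) and COX7B at 1.46 (adjusted p 0.0494), while ND-49 fell to -0.40 and did not pass. ND-18, ND-AGGG, ND-MLRQ, ND-MWFE and UQCR-11 passed in that fit alone. Leaving out 1 library at a time gave 5 calls without antenna A, 16 without antenna B, 43 without brain A, 9 without brain B and 26 without brain C. In the first 4 of these fits 39.2%, 42.9%, 63.5% and 44.9% of all genes passed.

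Other lists in this comparison are read against the 29.6% of all genes called higher and the 28.3% called lower. Of 11 oxidative phosphorylation genes outside the rule 4 were higher, among them SdhC (log2 1.16), SdhD (1.22) and sun (1.40), and of 11 mitochondrially encoded subunits 0 passed. Of 9 assembly factors 2 were higher, Surf1 (1.19), needed to build complex IV, and CIA30 (0.72), needed to build complex I. Of 10 regulators of mitochondrial biogenesis 1 was higher, foxo (2.02), and 3 were lower, ewg (-1.50) and srl (-1.65), the fly PGC-1 gene, among them. Citric acid cycle genes gave 2 of 14 higher, ScsbetaG (1.09) and kdn (1.04), glycolysis 0 of 11, and cytosolic ribosomal proteins 34 of 83 higher. Markers of muscle gave 12 of 15 higher and 1 lower, and markers of neurons 9 of 9 lower in antennae. Photoreceptor markers summed to 8322 CPM in antenna A and 1106.5 in antenna B, against 1056 to 1202 in the brains. The 3 of them called with the smallest p were norpA (-1.93), trpl (4.69) and ninaE (4.75). The part of cell composition in the members' difference was not tested.

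**Figure D4:**
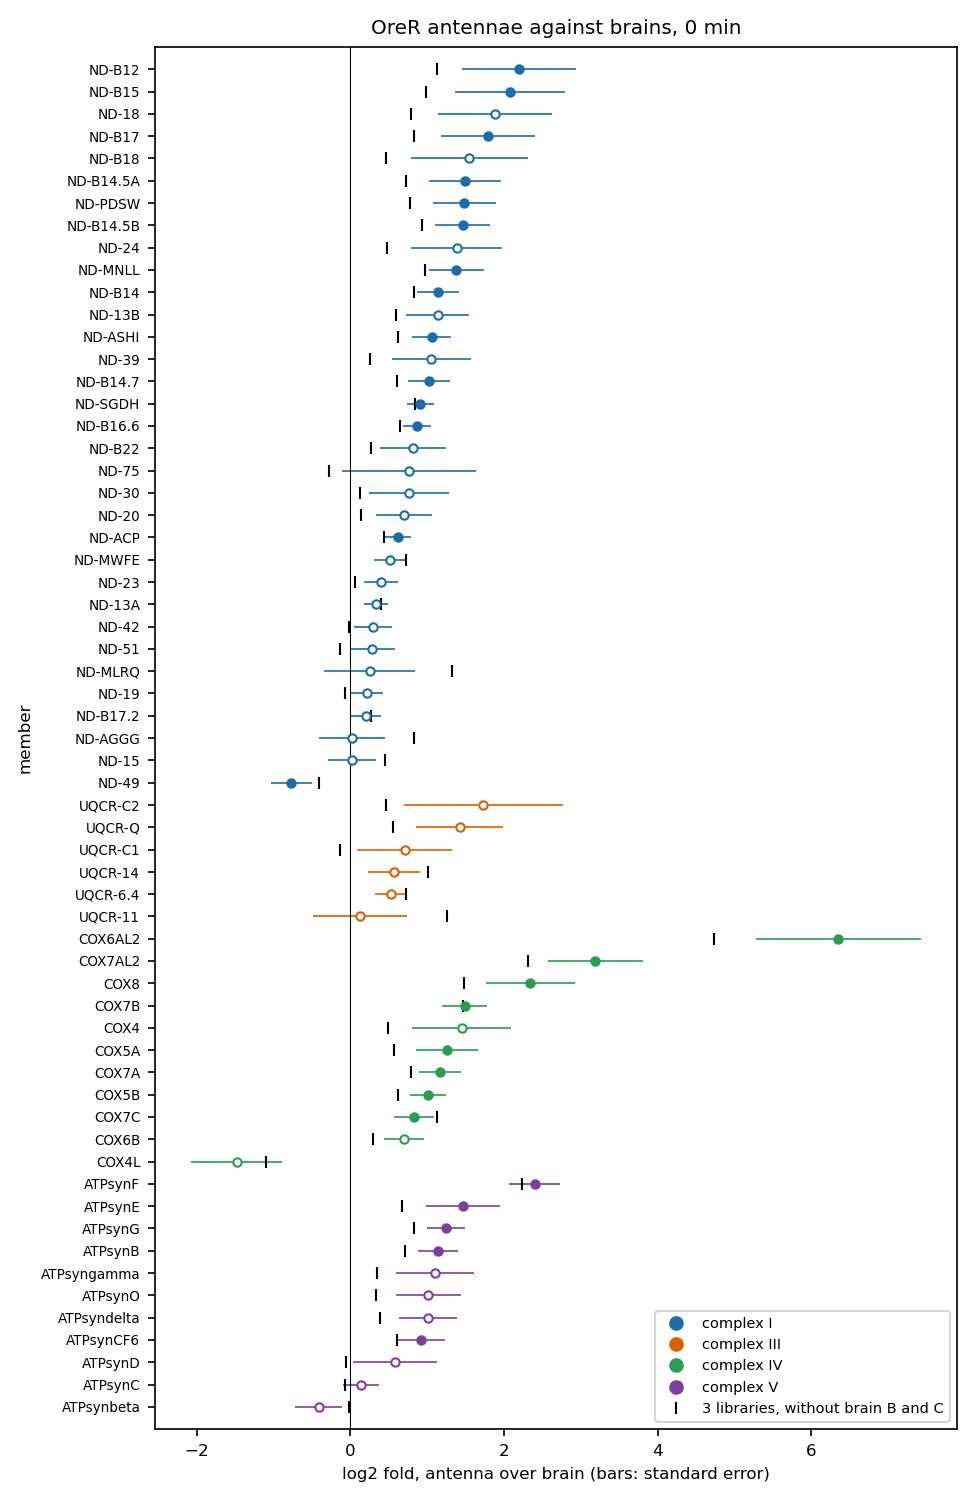
Log2 difference, OreR antennae over 5-day brains at 0 min (horizontal axis), for each member tested with its standard error; filled points passed an adjusted p of 0.05 and ticks give the value without brain B and C. ATPsynF (2.40) and COX6AL2 (6.35) lie far to the right and ND-49 (-0.77) is the filled point to the left of 0.

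The genes named as copies were low everywhere. Of 17 copies with a named parent, 11 in antennae and 3 in brains had a mean above the counting floor, the level of 3 counts in the smallest library of the tissue (0.162 and 0.155 CPM). Per kilobase the parent exceeded these by 58.2 to 7979-fold in antennae (median 789). In brains the 3 were COX4L, ND-51L1 and COX7AL2, and the parent exceeded them by 104 to 2502-fold. The other 6 and 14 lay at or below that floor, and no fold is given for them. Summed, the copies gave 9.90 to 26.8 CPM in antennae and 1.46 to 5.83 in brains. In each library 3 of the copies, COX6AL2, COX7AL2 and COX4L, made up more than 0.5 of that sum.

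COX6AL2 (3L:18908260-18914150, minus strand) was an antennal gene in these libraries, at 3.38 to 12.6 CPM in antennae (median 6.48) and 0 to 0.347 in brains, where 6 of 23 libraries had no count. Its log2 difference between tissues was 6.35 (SE 1.07, adjusted p 0.00370 by edgeR's test). Its exons share 2098 of 3130 bases, 67.03%, with Ir75d, an ionotropic receptor gene on the same strand, so reads of the shared part may belong to either. COX7AL2 (2L:2192525-2197912, minus strand) stood at 1.59 to 7.93 CPM in antennae (median 3.39) and 0.0581 to 2.49 in brains, with a log2 difference of 3.19 (adjusted p 0.00629). Its 2 highest brain libraries, 10 min A with 2.49 and 30 min B with 1.44 CPM at 5 days, were also the 2 highest in summed muscle markers, at 2800 and 942 CPM against 150 to 817 in the others. The part of muscle RNA in that level was not tested.

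COX4L (2R:5353994-5354723, plus strand) was instead the copy most present in brains. It stood at 0.707 to 2.01 CPM at 5 days, at 1.59 to 2.52 at 10 days and at 1.65 to 4.18 at 25 days, where the low libraries B gave 4.18 and 3.94 and the A libraries 2.11 and 1.65. In antennae it held 0.316 to 1.97 CPM. At 30 min the log2 difference of 25 over 5 days was 1.17 (SE 0.48, adjusted p 0.226 by edgeR's test), and 0.37 without the low libraries. ND-B8, whose mammalian counterpart is a small complex I subunit, stood at 0.265 to 1.22 CPM in antennae and 0 to 0.330 in brains.

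The remaining 18 copies were lower in antennae than those 3 genes together in every library. ND-20L and UQCR-14L had no count in any of the 23 brain libraries, where 3 counts, the limit a count of 0 allows, come to 0.0391 to 0.155 CPM. ND-24L, ND-49L, ATPsynGL and COX5BL were each highest in the stimulated OreR B library, at 0.815, 1.05, 0.762 and 0.657 CPM, and the 18 genes summed to 9.62 CPM there. Summed testis markers were also highest in that library, at 73.4 CPM. Next came Orco2 B and OreR B at 0 min, with testis sums of 40.7 and 34.7 CPM and copy sums of 7.27 and 4.48. The other 5 antennal libraries had testis sums of 0.246 to 19.3 CPM and copy sums of 1.02 to 3.06, and the brains 2.27 to 4.51 and 0.505 to 1.31. ATPsynCF6L shows what this does to a comparison: it stood at 0.0904 and 0.0752 CPM at 0 min and at 0 and 0.946 after stimulation in OreR, so that a single library set its log2 change of 2.51, which was -4.74 without that library. The part of testis RNA in these levels was not tested. COX5BL also lies within Trmt6 on the opposite strand, and since the library kit does not mark strand, reads of the pair cannot be told apart.

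**Figure D5:**
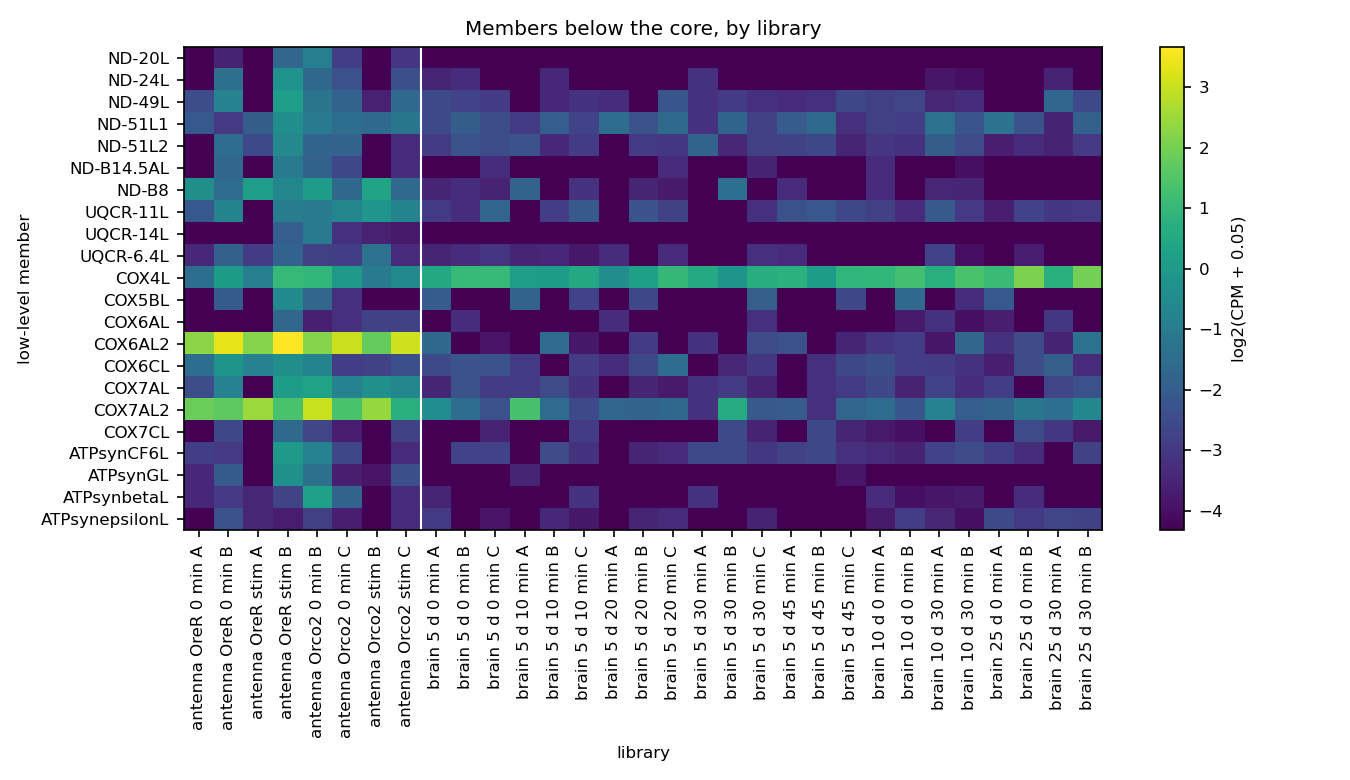
Log2(CPM + 0.05) of the 22 members with low levels (rows) in each of the 31 libraries (columns). COX6AL2 and COX7AL2 are high in the 8 antennal libraries, COX4L is present in all, and ND-24L, ND-49L, ATPsynGL and COX5BL are highest in the stimulated OreR B antennae.

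Some core members carry the same limit on assignment. UQCR-14 lies within CG32576 on the opposite strand and ND-MNLL within CG45089 on the same strand. ATPsyndelta shares 35.6% of its exonic bases with CG2962, UQCR-6.4 40.5% with POSH and ND-B22 26.1% with CG31855, so their levels may include reads of those neighbours.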

How the data were processed

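Libraries were made with the TruSeq RNA v2 kit from Trizol RNA, per the labels' protocols. Per the submitters' processing notes kallisto 0.43.1, edgeR 3.18.1 and CASAVA 1.7 were used, with GRCm38 and dm6 listed as builds. Per the file headers each deposited file gives, per transcript, a length, an effective length, an estimated count and a TPM. Fragment length was read as length minus effective length plus 1. Transcripts were mapped to genes with the Ensembl BDGP6.54 annotation, and each gene's estimated counts, as deposited, were added over its transcripts and then rounded. Counts without a matched transcript made up 0.396 to 0.514% of a library.

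Genes were kept by filterByExpr in edgeR 4.0.16 (R 4.3.3, limma 3.58.1), scaled by TMM and tested with glmQLFTest, with Benjamini-Hochberg adjustment over all genes kept. Antennae, brains, and the tissue comparison were fitted separately. Alternatives were DESeq2 1.42.0, limma on log2(TPM + 1), other filters and scalings, a fragment-length term, the compared groups alone, a replicate block and each library left out. Leaving out the 5 low libraries, those with a mean ribosomal-protein level over 0.5 log2 below their tissue's, was chosen after the data were seen. The fits were tested on simulated data.

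The members and lists were chosen with earlier results of these data known. Named genes are the 3 of highest and lowest mean TPM in each complex, the members called, and otherwise the 3 of smallest p in a comparison; others were named after their values were seen. For 10 against 0 min the deviations of libraries with the same replicate letter correlated at 0.522, 0.447 and 0.496. Such deviations also correlated for 30 against 0 min at 25 days (0.884) and for stimulation in OreR antennae (0.728). Groups there hold 2 libraries each, so both letters give the same value. In the other comparisons the correlations ran from -0.617 to 0.743. The main tests took no account of the letters, and the replicate block was run as an alternative. Over 465 pairs of libraries none agreed within sampling noise.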

Additional observations from a re-analysis of the deposited data

How the results depend on the processing

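Of 240 counts of members called under the alternatives, 217 kept the result and 23 did not, and 11 of the 18 comparisons kept theirs under every alternative run. Beside the main count of 0 for genotype after stimulation, DESeq2 called 3 of 71 and a fragment-length term 1, with 13.7% and 13.2% of all genes. For 25 over 5 days at 0 min, also 0, DESeq2 called 1 (5.22% of all genes), and leaving out 1 library at a time gave 0 to 12, with 12 without 25 days A (10.7% of all genes). For 10 over 5 days at 30 min, also 0, leaving out the low libraries gave 1. For 25 over 5 days at 30 min, where the main count was 1, no filter on low counts, limma on TPM and the compared groups alone each gave 0 and a fragment-length term gave 19 (1 higher, 18 lower; 15.9% of all genes), with a median of -1.24. Leaving out 1 library at a time there gave 0 to 19, with 19 without 25 days A (8.55% of all genes). For tissue, with 27 called, limma on TPM gave 8 (4 higher, 4 lower; 67.9% of all genes) and a median of 0.38, and single libraries left out gave 5 to 43. The cause of these differences was not tested.

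With the replicate block, 22 of 71 members passed for genotype at 0 min and 10 after stimulation, with 20.2% and 17.9% of all genes. Of these 21 and 9 were higher in Orco2. The share of members lay above that of all genes at 0 min and below it after stimulation. The genotypes share only the letter B, which is 355 bases in OreR and 299 in Orco2. The replicate block gave 2 calls for 10 over 5 days and 2 for 25 over 5 days at 0 min, and 4 for 25 over 5 days at 30 min, with 13.5%, 15.1% and 21.1% of all genes, so these shares of 61 members lie below those of all genes. It changed no other count from calls to none or back. For 10 against 0 min, for 30 against 0 min at 25 days and for stimulation in OreR antennae it called 0. With the letters of the 10-day 30 min libraries crossed, the block called 0.

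Of the values for single named members, 733 kept their side, 12 became calls, 35 lost theirs and 6 reversed. Without the stimulated OreR B library ATPsynCF6L reversed to -4.74 for stimulation in OreR (range without single libraries -4.74 to 3.49) and to 0.92 for the difference between strains (-9.23 to 0.92). ATPsynC at 25 days reversed for 30 against 0 min to 0.17 without 0 min A and to 0.09 without 30 min B (range -0.35 to 0.17). ND-B17.2 at 25 over 5 days and 0 min reversed to 0.042 without 25 days B (range -1.43 to 0.042) and to 0.12 without the low libraries. Medians over the members kept their value in 225 of 240 cases. All 31 libraries in 1 fit were run for tissue alone; the tissue comparison with a fragment-length term could not be fitted, since no length occurs in both tissues. Single counts limit the copies, and the 2-library groups limit every age and antennal test.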

Other observations

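Outside the members, the adenine nucleotide carrier sesB and the citric acid cycle gene Idh3b were lower at 25 than at 5 days at 30 min, with log2 differences of -0.56 and -0.45, and of -0.63 and -0.46 without the low libraries, which leaves 1 library at 25 days. The mitochondrial ribosomal protein gene mRpL39 was higher in Orco2 than in OreR antennae, by 1.17 at 0 min and 1.05 after stimulation, and mRpS14 and mRpS31 were lower after stimulation, by -0.71 and -0.87, all on the log2 scale. Ldh, which makes lactate, was higher at 10 than at 5 days at 30 min (log2 2.42 with and without the low libraries), and the 10-day 30 min A library held 10631 CPM of summed midgut markers, where the median library held 8.14.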
